A study of Mus musculus with 10 samples.

Results

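The genes described here are 33 interferon-stimulated genes, among them the cytoplasmic RNA sensors of the RIG-I family, in 2 subsets of mouse splenic dendritic cells with and without the autophagy gene Atg16l1. Members were taken from a list of symbols, with the guanylate-binding protein and Irf genes left out, and were matched to the Ensembl identifiers of the count tables. The list was chosen with earlier results of these data known. Shares of all genes set beside it therefore describe the list and do not test it. All 33 were found among the 53379 genes of the tables, and all 33 were among the 14528 genes with enough counts to be tested.

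The study measured RNA in dendritic cells sorted from spleens of C57BL/6 mice aged 16 weeks, for work on a mouse model of atherogenesis. The labels give 4 groups: CD11b WT (Atg16l1 +/+, 3 libraries), CD11b KO (Atg16l1 -/-, 2 libraries), CD8 WT (Atg16l1 +/+, 3 libraries) and CD8 KO (Atg16l1 -/-, 2 libraries). Cells came from single mice after magnetic enrichment of CD11c-positive cells, with a sorting gate on high MHC class II, high CD11c and either CD11b or CD8. The strategy behind the deletion (Cre line, promoter, tissue), the diet or genetic background of the atherogenesis model, and whether both subsets came from the same mice are not given in the sources used here.

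Interferons bind receptors on the cell surface and activate Janus kinases, which phosphorylate transcription factors such as STAT2. STAT2 is part of the factor ISGF3, which binds the interferon-stimulated response element (ISRE) in the promoters of interferon-stimulated genes. The products include sensors that detect viral RNA in the cytoplasm, enzymes and binding proteins that degrade or hold back foreign RNA, and regulators such as USP18 that dampen the receptor. Conventional dendritic cells of the spleen fall into cDC1, marked by Cd8a and Xcr1, and cDC2, marked by Itgam (CD11b) and Sirpa, and they keep part of this programme on without infection.

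Each library held between 9467704 and 13768884 reads assigned to genes on the kit's strand, and values are CPM, counts scaled to each library's total after TMM adjustment of that total. Atg16l1 stood at 24.1, 32.7 and 13.3 CPM in CD11b WT and 19.5, 15.2 and 17.5 CPM in CD8 WT, against 3.03 and 1.83 CPM in CD11b KO and 1.73 and 3.31 CPM in CD8 KO. The genotype labels thus matched the RNA in all 10 libraries. The subset labels did not: cDC1 markers were high in the 5 libraries labelled CD11b, with Cd8a at 448 to 578 CPM and Xcr1 at 290 to 442 CPM against at most 5.87 and 11.3 CPM in the 5 libraries labelled CD8. For the cDC2 markers the order was reversed, with Itgam between 76.1 and 104 CPM under label CD8 and at most 2.73 CPM under label CD11b, and Sirpa between 553 and 629 CPM against 23.9 to 29.2 CPM. Groups keep their deposited labels throughout, so every difference between "label CD11b" and "label CD8" is one between libraries that carry cDC1 markers and libraries that carry cDC2 markers, in that order.

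Promoter sequence was available for 23 of the 33 genes in RefSeq's table (build GRCm38.p6). The ISRE core searched was GAAANNGAAA on either strand, TTTCNNTTTC on the other, in the 250 bases before a start site, and overlapping matches were allowed. A gene with several starts was counted where any of its windows held a core. It occurred in 12 of the 23 (52.2%), against 936 of all 27025 genes with an entry (3.46%) and 349 of the 10049 tested genes with one (3.47%). The 6 members shown were the ones with the smallest p-values in the WT subset comparison below among those with a core, and Ifi203 and Ifi205 are neighbours that differed in opposite directions there. Each stretch runs 5′ to 3′ along the gene's strand, up to 40 bases on either side of the core, and capitals mark the core.
Ifi205, chr1:174031840-174031929, minus strand: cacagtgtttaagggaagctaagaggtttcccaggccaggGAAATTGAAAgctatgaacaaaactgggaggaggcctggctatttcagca
Ifi203, chr1:173942493-173942567, minus strand: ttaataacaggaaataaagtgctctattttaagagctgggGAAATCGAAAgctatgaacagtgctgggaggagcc
Ifit1, chr19:34640745-34640853, plus strand: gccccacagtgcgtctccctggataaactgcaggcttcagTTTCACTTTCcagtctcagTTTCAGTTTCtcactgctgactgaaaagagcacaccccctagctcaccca
Rsad2, chr12:26456523-26456612, minus strand: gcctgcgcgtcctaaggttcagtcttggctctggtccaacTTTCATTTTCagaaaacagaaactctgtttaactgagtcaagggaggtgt
Oas3, chr5:120777685-120777774, minus strand: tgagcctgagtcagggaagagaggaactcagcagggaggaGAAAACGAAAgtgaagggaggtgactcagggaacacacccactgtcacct
Isg15, chr4:156200835-156200936, minus strand: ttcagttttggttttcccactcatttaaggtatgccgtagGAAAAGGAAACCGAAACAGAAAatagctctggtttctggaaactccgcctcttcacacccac

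Isg15 held 3 overlapping cores and Ifit1 held 2 separate ones, and the other 4 held 1 each. Among members with an entry, the core was found in 9 of the 18 that were lower at label CD11b in WT and in 2 of the 3 that were higher (Ifi205 and Trim30a, with Oasl1 the one without). A match to these letters is a description of the window and not a binding site.

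The first comparison asked how the 2 subsets differ in these genes when Atg16l1 is intact. In WT, 25 of the 33 genes were lower and 4 were higher in the libraries labelled CD11b than in those labelled CD8, by edgeR's quasi-likelihood test with Benjamini-Hochberg adjusted p under 0.05. That is 87.9% of the genes, in a list chosen with earlier results known, against 29.5% of all genes tested (15.7% lower and 13.8% higher). The median log2 fold change, label CD11b minus label CD8, was -1.73 over the 33 genes and 0.0 over all genes tested, with a range from -6.36 (Rtp4) to 2.52 (Ifi205). In 31 of the 33 the 3 WT libraries of one label did not overlap the 3 of the other, against 41.5% of all genes. Bulk RNA cannot tell fewer cells of a type from less RNA per cell.

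Markers of several other spleen cell types differed between the subset labels too. The summed level of 12 B cell markers was 274 to 357 CPM in CD11b WT and 374 to 948 CPM in CD8 WT, and 270 to 610 CPM in CD11b KO and 842 to 2419 CPM in CD8 KO. For 11 red pulp macrophage markers the sums were 157 to 195 CPM in CD11b WT, 188 to 217 CPM in CD11b KO, 316 to 419 CPM in CD8 WT and 510 to 531 CPM in CD8 KO. For 12 plasmacytoid dendritic cell markers they were 267 to 353, 310 to 318, 341 to 397 and 373 to 425 CPM in the same order, so the 2 WT ranges overlapped. Single markers of this list went both ways. At an edgeR adjusted p under 0.05, 5 were higher and 3 lower at label CD11b in WT, and 3 and 3 in KO. The defining marker Siglech stood at 13.1 to 33.6 CPM at label CD11b and 0.576 to 2.37 CPM at label CD8. Cd79a stood at 5.02 to 43.7 CPM and C1qa at 14.8 to 39.0 CPM at label CD8, against at most 1.96 and 5.54 CPM at label CD11b. For 9 monocyte markers the sums were 2714 to 2910, 2523 to 2585, 3698 to 4298 and 3137 to 3766 CPM in the order CD11b WT, CD11b KO, CD8 WT and CD8 KO. Of these 9, 5 were lower and 1 was higher at label CD11b in WT at an edgeR adjusted p under 0.05, with a median log2 difference of -0.48. One of the 9 is Csf1r, a receptor that some dendritic cells also carry. It stood at 19 ± 4.95 CPM in CD11b WT and 295 ± 49.8 CPM in CD8 WT (SD, n = 3 each). For 10 neutrophil markers, of which 2 could be tested, they were 1.43 to 2.33, 3.33 to 4.25, 15.2 to 18.9 and 18.8 to 19 CPM. All markers of these 5 lists had counts in at least 1 library, and the part of such cells in the subset differences was not tested.

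**Figure D1:**
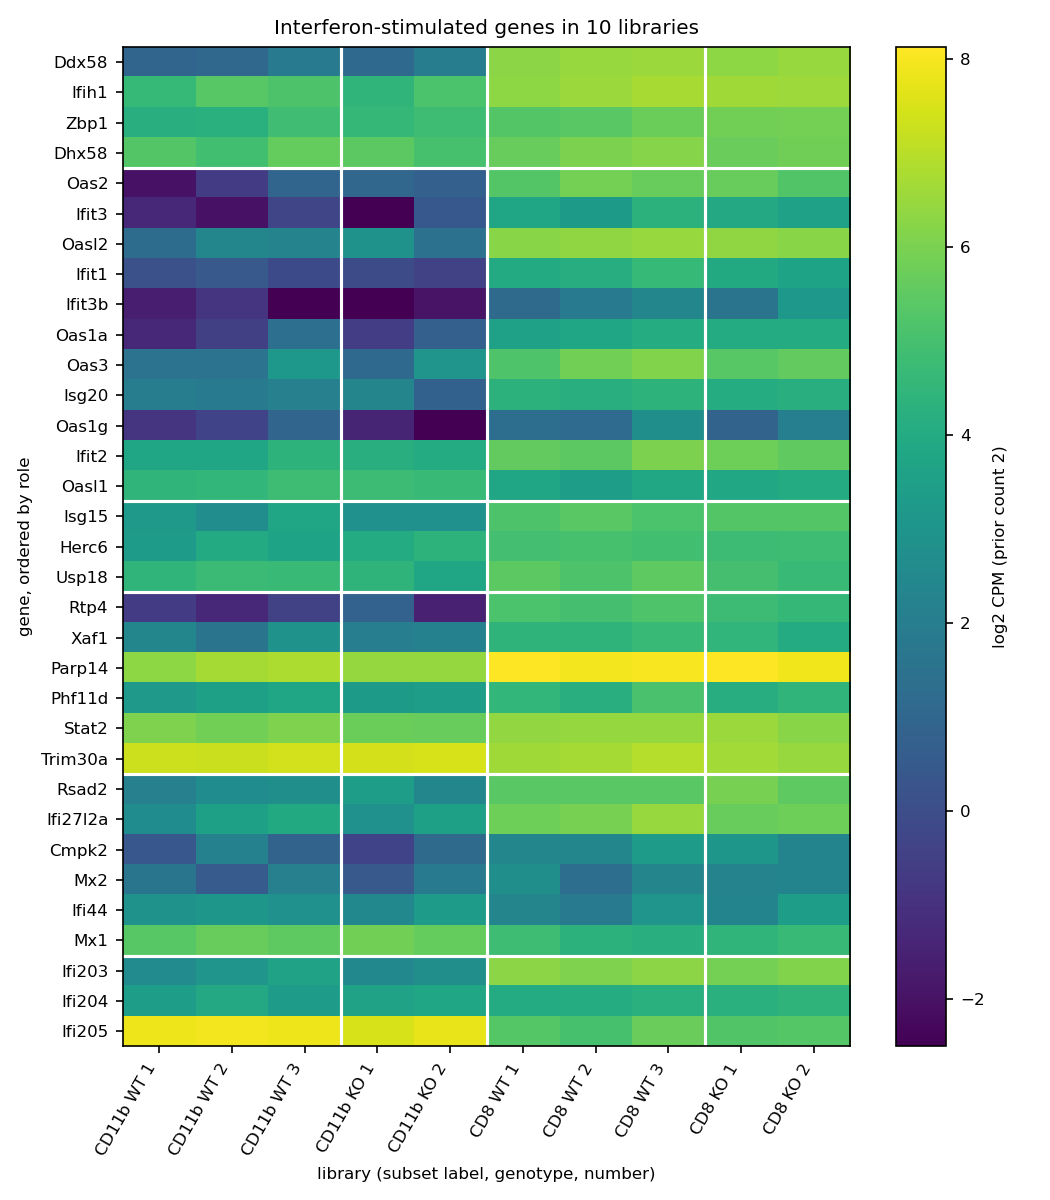
Level of each of the 33 genes (rows, grouped by role with white lines between roles: RNA sensors, RNA-binding and RNA-degrading effectors, ISG15 system, regulators, other antiviral effectors, PYHIN family) in each of the 10 libraries (columns), as log2 CPM with a prior count of 2. Most rows are darker (lower) in the 5 libraries labelled CD11b on the left, and Ifi205, Trim30a, Mx1 and Oasl1 are brighter there.

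All 4 RNA sensors were lower at label CD11b in WT. Ddx58 encodes RIG-I, the helicase that recognises short double-stranded RNA with free phosphate ends. It stood at 1.75, 1.96 and 3.63 CPM in CD11b WT and 2.02 and 3.75 CPM in CD11b KO, against 77.8, 88.6 and 92.2 CPM in CD8 WT and 78.8 and 88.7 CPM in CD8 KO. The 2 labels were far apart in both genotypes, and mean CPM at label CD8 was 35.2 times that at label CD11b in WT (log2 difference -5.16, SE 0.23, edgeR adjusted p = 3.13e-14), the smallest p-value of the 33 genes. Ifih1 encodes MDA5, the sensor of long double-stranded RNA. Its level was 24.8, 40.7 and 35.7 CPM in CD11b WT, 21.7 and 34.7 CPM in CD11b KO, 78.9, 92.4 and 108 CPM in CD8 WT and 97.4 and 94.7 CPM in CD8 KO. All 5 libraries labelled CD8 exceeded all 5 labelled CD11b, but by a smaller factor of 2.76 in WT (log2 difference -1.46, SE 0.18). Dhx58 encodes LGP2, the family member without signalling domains that modulates the other two, and it differed least, at 39.5 ± 9.55 CPM (SD, n = 3) in CD11b WT and 63.1 ± 11.4 CPM (SD, n = 3) in CD8 WT (log2 difference -0.68, SE 0.17, edgeR adjusted p = 0.00408). Zbp1, which senses Z-form nucleic acid and can start necroptosis, stood at 21.9 ± 6.18 CPM (SD, n = 3) and 44.8 ± 7.66 CPM (SD, n = 3) in the same groups (log2 difference -1.04, SE 0.19). Per kilobase (kb) of exon the 3 RIG-I family genes were close together in CD8 WT, at 11.4 to 19.3 CPM per kb, whereas in CD11b WT Ddx58 was at 0.347, Ifih1 at 4.13 and Dhx58 at 12.1 CPM per kb.

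Among the 11 RNA-binding and RNA-degrading effectors, 9 were lower and 1 was higher at label CD11b in WT, with a median log2 difference of -3.77. The group held several of the widest gaps. Oas2 makes the oligoadenylate signal that switches on RNase L, and its counts were close to none at label CD11b. Its level was 0.0759, 0.453 and 1.77 CPM in CD11b WT and 1.82 and 1.5 CPM in CD11b KO, against 39.1, 60.3 and 50.5 CPM in CD8 WT and 50.2 and 38.1 CPM in CD8 KO. No library labelled CD11b came near those labelled CD8, and the ratio of the WT means was 65.3 (log2 difference -6.11, SE 0.41, edgeR adjusted p = 2.85e-11). Without CD11b WT 3, the highest of its group, the log2 difference was -7.50, and over 19 alternative settings it ranged from -7.50 to -5.54. The related synthetase Oas3 stood at 2.73, 2.72 and 8.84 CPM in CD11b WT, 2.02 and 8.08 CPM in CD11b KO, 36.3, 58.8 and 69.0 CPM in CD8 WT and 40.6 and 47.9 CPM in CD8 KO. Its log2 difference in WT was -3.55 (SE 0.39), and -4.32 without CD11b WT 3. Oas1a, another synthetase, was at 1.06 ± 1.19 CPM (SD, n = 3) in CD11b WT and 13.9 ± 2.43 CPM (SD, n = 3) in CD8 WT (log2 difference -3.77, SE 0.53, and -5.16 without CD11b WT 3). Over the same settings the log2 difference ranged from -4.32 to -3.26 for Oas3 and from -5.16 to -3.27 for Oas1a.

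The IFIT proteins bind foreign RNA at its 5′ end and block its translation. Ifit1 stood at 0.911, 1.21 and 0.744 CPM in CD11b WT and 0.807 and 0.583 CPM in CD11b KO, against 15.8, 17.3 and 24.1 CPM in CD8 WT and 15.5 and 12.6 CPM in CD8 KO. The labels did not overlap, and the WT means differed 20.0 times (log2 difference -4.29, SE 0.36, edgeR adjusted p = 1.58e-09). Ifit3 was at 0.318 ± 0.298 CPM (SD, n = 3) in CD11b WT and 14.3 ± 5.35 CPM (SD, n = 3) in CD8 WT (log2 difference -5.51, SE 0.66, and -6.46 without CD11b WT 3). Ifit3b was at 0.176 ± 0.19 and 3.53 ± 1.48 CPM in the same groups (log2 difference -4.19, SE 0.90, and -5.25 without CD11b WT 2). Over 19 alternative settings these differences ranged from -6.46 to -5.04 for Ifit3 and from -5.25 to -3.69 for Ifit3b. Ifit2 differed from these neighbours on chromosome 19 in keeping a clear level at label CD11b: 13.1, 13.7 and 20.6 CPM in CD11b WT and 18.3 and 16.1 CPM in CD11b KO, against 43.6 to 65.0 CPM in the libraries labelled CD8 (log2 difference in WT -1.73, SE 0.20). Isg20, an exonuclease of single-stranded RNA, was at 3.77 ± 0.397 CPM (SD, n = 3) in CD11b WT and 19.6 ± 1.13 CPM (SD, n = 3) in CD8 WT (log2 difference -2.38, SE 0.32).

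Near-identical copies limit some of these values. Of the 50-base words in the exons of Ifit3, 51.2% also occur in Ifit3b, and of those of Oas1a, 57.6% also occur in Oas1g. Reads from the shared parts map to both places, and between 21.73% and 25.53% of reads per library mapped to several places. Ifit3, Ifit3b, Oas1a and Oas1g are therefore uncertain as single genes. Oas1g did not pass the test in WT, at 0.38, 0.604 and 1.77 CPM in CD11b WT against 2.38, 2.17 and 6.72 CPM in CD8 WT (edgeR adjusted p = 0.0701). That adjusted p ranged from 0.0319 to 0.404 over 19 settings and was 0.0319 without CD11b WT 3, 0.0498 without CD11b KO 2 and 0.404 without CD8 WT 3.

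Oasl2 and Oasl1 encode OAS-like proteins with ubiquitin-like domains and lie side by side on chromosome 5. They differed between the subsets in opposite directions. Oasl2 stood at 2.20, 4.98 and 4.65 CPM in CD11b WT and 7.37 and 2.67 CPM in CD11b KO, against 74.5, 82.9 and 89.9 CPM in CD8 WT and 81.6 and 75.2 CPM in CD8 KO (WT log2 difference -4.39, SE 0.27, edgeR adjusted p = 5.69e-12). Oasl1, which holds back translation of Irf7 mRNA, stood at 21.7, 23.3 and 27.8 CPM in CD11b WT and 27.2 and 25.4 CPM in CD11b KO, against 13.4, 10.9 and 14.1 CPM in CD8 WT and 14.7 and 16.4 CPM in CD8 KO. All 5 libraries labelled CD11b were above all 5 labelled CD8 for Oasl1 (WT log2 difference 0.92, SE 0.21, edgeR adjusted p = 0.00113). The 2 genes shared no more than 0.138% of 50-base words with any other gene.

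**Figure D2:**
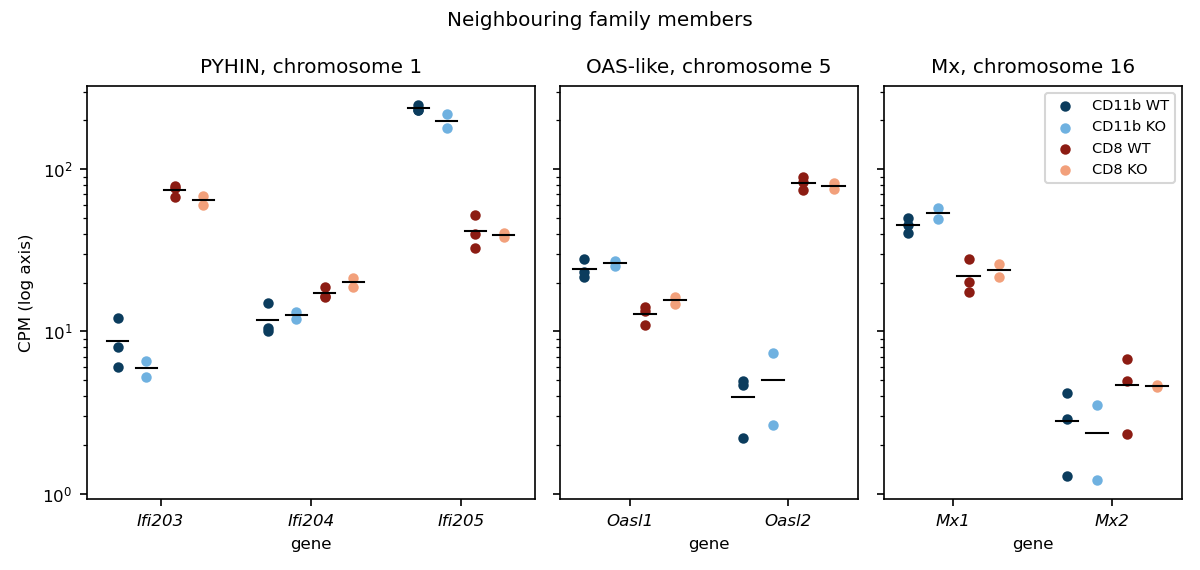
CPM (log axis) of neighbouring family members in each library, with points for libraries, black bars for group means and colours for the 4 groups. Ifi205, Oasl1 and Mx1 are higher in the CD11b WT and CD11b KO groups. Ifi203 and Oasl2 are higher in the CD8 WT and CD8 KO groups. For Mx2 the labels overlap in WT but not in KO.

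The 3 members of the ISG15 system were lower at label CD11b in WT. Isg15 itself, a ubiquitin-like protein joined to newly made proteins, stood at 9.19, 6.34 and 13.2 CPM in CD11b WT and 7.16 and 7.08 CPM in CD11b KO, against 35.1, 42.8 and 34.6 CPM in CD8 WT and 39.0 and 39.2 CPM in CD8 KO. The labels did not overlap (WT log2 difference -1.98, SE 0.23, edgeR adjusted p = 2.51e-07). Herc6, the ligase that joins ISG15 to proteins in mice, was at 12.8 ± 2.87 CPM (SD, n = 3) in CD11b WT and 31.0 ± 1.45 CPM (SD, n = 3) in CD8 WT (log2 difference -1.28, SE 0.20). Usp18, which removes ISG15 and dampens the interferon receptor, was at 22.0, 26.4 and 25.9 CPM in CD11b WT and 43.5, 35.3 and 45.0 CPM in CD8 WT (log2 difference -0.74, SE 0.19, edgeR adjusted p = 0.00405).

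Of the 6 signalling, chaperone and other regulators, 5 were lower and 1 was higher. Rtp4, a chaperone of G protein-coupled receptors that is induced by interferon, had the widest gap of the 33 genes. It stood at 0.456, 0.226 and 0.558 CPM in CD11b WT and 1.61 and 0.167 CPM in CD11b KO, against 34.5, 31.7 and 36.2 CPM in CD8 WT and 27.4 and 23.4 CPM in CD8 KO, a ratio of 82.6 between the WT means (log2 difference -6.36, SE 0.43, edgeR adjusted p = 2.85e-11). Parp14, an ADP-ribosyltransferase, was abundant at both labels, with 80.3, 105 and 112 CPM in CD11b WT and 273, 247 and 260.0 CPM in CD8 WT (log2 difference -1.39, SE 0.11). Stat2, the transcription factor of ISGF3, differed by the smallest amount among the called genes, at 64.5 ± 4.86 CPM (SD, n = 3) against 85.6 ± 1.81 CPM (SD, n = 3) (log2 difference -0.41, SE 0.12, edgeR adjusted p = 0.0113). Without CD11b WT 2 that adjusted p was 0.0556, within a range from 0.00645 to 0.0556 over 19 alternative settings. Xaf1, an antagonist of apoptosis inhibitors, and Phf11d were lower by 2.15 and 1.11 on the log2 scale. Trim30a, a TRIM protein that restrains NF-kappaB signalling, went the other way: 158, 155 and 167 CPM in CD11b WT and 173 and 179 CPM in CD11b KO, against 96.4, 104 and 124 CPM in CD8 WT and 100 and 90.8 CPM in CD8 KO (WT log2 difference 0.57, SE 0.11, edgeR adjusted p = 0.000194).

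Among the 6 other antiviral effectors, 3 were lower, 1 was higher and 2 did not pass the test. Rsad2 encodes viperin, which makes a chain-terminating nucleotide, and stood at 4.18, 6.26 and 6.79 CPM in CD11b WT and 10.7 and 5.08 CPM in CD11b KO, against 42.2, 42.9 and 41.9 CPM in CD8 WT and 60.8 and 44.9 CPM in CD8 KO (WT log2 difference -2.89, SE 0.25, edgeR adjusted p = 1.95e-09). Cmpk2, its neighbour on chromosome 12 and a mitochondrial nucleotide kinase, was at 0.57 CPM per kb in CD11b WT and 1.59 in CD8 WT, where Rsad2 was at 1.32 and 9.77. Its level ran from 0.605 to 4.30 CPM at label CD11b and from 4.79 to 9.84 CPM at label CD8 (WT log2 difference -1.47, SE 0.55, edgeR adjusted p = 0.0467). That call was lost in 7 of 19 alternative settings, including those without CD8 WT 3 (adjusted p = 0.237), CD11b WT 1 (0.161), CD11b WT 3 (0.142), CD8 KO 1 (0.0615), CD8 WT 2 (0.0592) or CD8 KO 2 (0.0524), in a range from 0.00734 to 0.237. Without CD11b WT 2 the log2 difference was -2.24, in a range from -2.24 to -1.07. Ifi27l2a, which encodes a small interferon-induced membrane protein, reached the highest level per kilobase of exon of the 33 genes at label CD8 in WT, 147 CPM per kb against 23.6 CPM per kb in CD11b WT (log2 difference -2.65, SE 0.25). The dynamin-like GTPase Mx1 was higher at label CD11b, with 40.6, 49.7 and 45.2 CPM in CD11b WT and 57.8 and 49.1 CPM in CD11b KO, against 28.0, 20.1 and 17.5 CPM in CD8 WT and 21.7 and 26.0 CPM in CD8 KO (WT log2 difference 1.05, SE 0.18). Most inbred mouse strains carry a disrupted Mx1 gene. Mx2, on the same chromosome, gave 1.28 to 4.19 CPM in CD11b WT and 2.35 to 6.80 CPM in CD8 WT (edgeR adjusted p = 0.357), and Ifi44 gave 7.25 to 8.45 CPM and 3.53 to 7.95 CPM (edgeR adjusted p = 0.392). Both overlapped between the labels in WT.

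The 3 PYHIN genes lie in 1 cluster on chromosome 1 and encode proteins related to the DNA sensors AIM2 and IFI16. Ifi205 was the most abundant of the 33 per kilobase of exon at label CD11b, and the gene with the largest excess there. It stood at 232, 249 and 231 CPM in CD11b WT and 178 and 219 CPM in CD11b KO, against 39.6, 32.5 and 51.8 CPM in CD8 WT and 38.2 and 40.2 CPM in CD8 KO, a ratio of 5.75 between the WT means (log2 difference 2.52, SE 0.14, edgeR adjusted p = 9.10e-13). Ifi203 went the opposite way, at 6.07, 8.0 and 12.1 CPM in CD11b WT and 5.25 and 6.58 CPM in CD11b KO, against 78.7, 67.1 and 76.8 CPM in CD8 WT and 60.5 and 68.7 CPM in CD8 KO (WT log2 difference -3.10, SE 0.20, edgeR adjusted p = 1.82e-11). RefSeq gives 2 start sites for Ifi203, and the window of one holds 1 ISRE core on the gene's own strand, 26 bases before the start, while the window of the other holds none. Ifi205 has 1 start, with a core on the same strand 125 bases before it. The fold change of Ifi204 lay between those of Ifi203 and Ifi205. Ifi204 did not pass the test in WT, at 11.8 ± 2.75 CPM (SD, n = 3) against 17.2 ± 1.33 CPM (SD, n = 3). Its edgeR adjusted p was 0.0881, and 0.0295 without CD11b WT 2, in a range from 0.0295 to 0.261. Ifi204 and Ifi205 share 14.8% and 18.5% of their 50-base words with Ifi211, and Ifi203 shares 8.85% with its pseudogene, so part of their reads may be left out or misplaced.

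The same comparison was made between the KO libraries. Its fold changes come from KO libraries alone, while the gene filter, scaling and spread were set over all 10 libraries. There, 24 of the 33 genes were lower and 4 were higher at label CD11b (84.8%, against 22.8% of all genes tested, 12.5% lower and 10.3% higher), with a median log2 difference of -2.22 and -0.01 over all genes. In 32 of the 33 the groups did not overlap, against 58.7% of all genes, with 2 libraries per group. The sign was the same as in WT for all 33 genes, with Ifi44 almost at 0 in KO (log2 difference 0.01, SE 0.48). In both genotypes 27 were called, 23 lower and 4 higher. The matching shares of all genes are not given here, so these counts describe the members and do not set them apart. Dhx58 and Herc6 were called in WT and not in KO (edgeR adjusted p = 0.0957 and 0.0886 in KO), Oas1g was called in KO and not in WT, and Mx2, Ifi44 and Ifi204 were called in neither. Ddx58 was lower by 4.83 on the log2 scale in KO (SE 0.28), Oas2 by 4.73 (SE 0.45), Rtp4 by 4.90 (SE 0.48) and Oasl2 by 3.99 (SE 0.32), while Ifi205 was higher by 2.34 (SE 0.17). Several of these sizes moved with 1 library. For Rtp4 the log2 difference was -7.16 when CD11b KO 1 was left out and -3.97 when CD11b KO 2 was, and for Oasl2 it was -4.87 without CD11b KO 1. The same held for Ifit3, Ifit3b, Isg20, Oas1a, Oas1g, Oas3, Rsad2 and Cmpk2, as given in the closing section. Leaving out 1 of the 2 libraries of a KO group leaves 1 sample there, which the fit assumes to vary like the other groups. With any 1 of the 4 KO libraries left out, Oasl1 kept a log2 difference of 0.68 to 0.85 against 0.76 with all, and its adjusted p rose to between 0.0695 and 0.173; with no filter on low counts it was 0.0654, and the range over 19 settings was 0.0179 to 0.173. Phf11d was not called without CD11b KO 1 (log2 difference -0.87, adjusted p = 0.14), CD11b KO 2 (-1.03, 0.0832) or CD8 KO 2 (-0.75, 0.209), nor by limma-voom (0.0545), in a range from 0.0159 to 0.209. Usp18 was not called without CD11b KO 2 (-0.45, 0.291) or CD8 KO 1 (-0.61, 0.182), with unstranded counts (0.245) or with only the libraries compared (0.0558), in a range from 0.00576 to 0.291. Cmpk2 was not called without CD11b KO 1 (-1.67, 0.189) or CD8 KO 1 (-1.80, 0.177), in a range from 0.00784 to 0.189. Oas1g was not called without CD11b KO 2 (-3.76, 0.09) or CD8 KO 2 (-3.97, 0.0753), nor by limma-voom (0.0732), in a range from 0.00225 to 0.09. In CD11b KO, Ifit3b had 1 count and Oas1g 2 counts over both libraries, so their ratios to CD8 KO rest on few reads: 124 (95% counting interval 21.9 to 4945) and 31.1 (8.27 to 262). Whether the subset difference itself differed between genotypes is the same test as the difference of the KO effects, and no member was called in it.

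**Figure D3:**
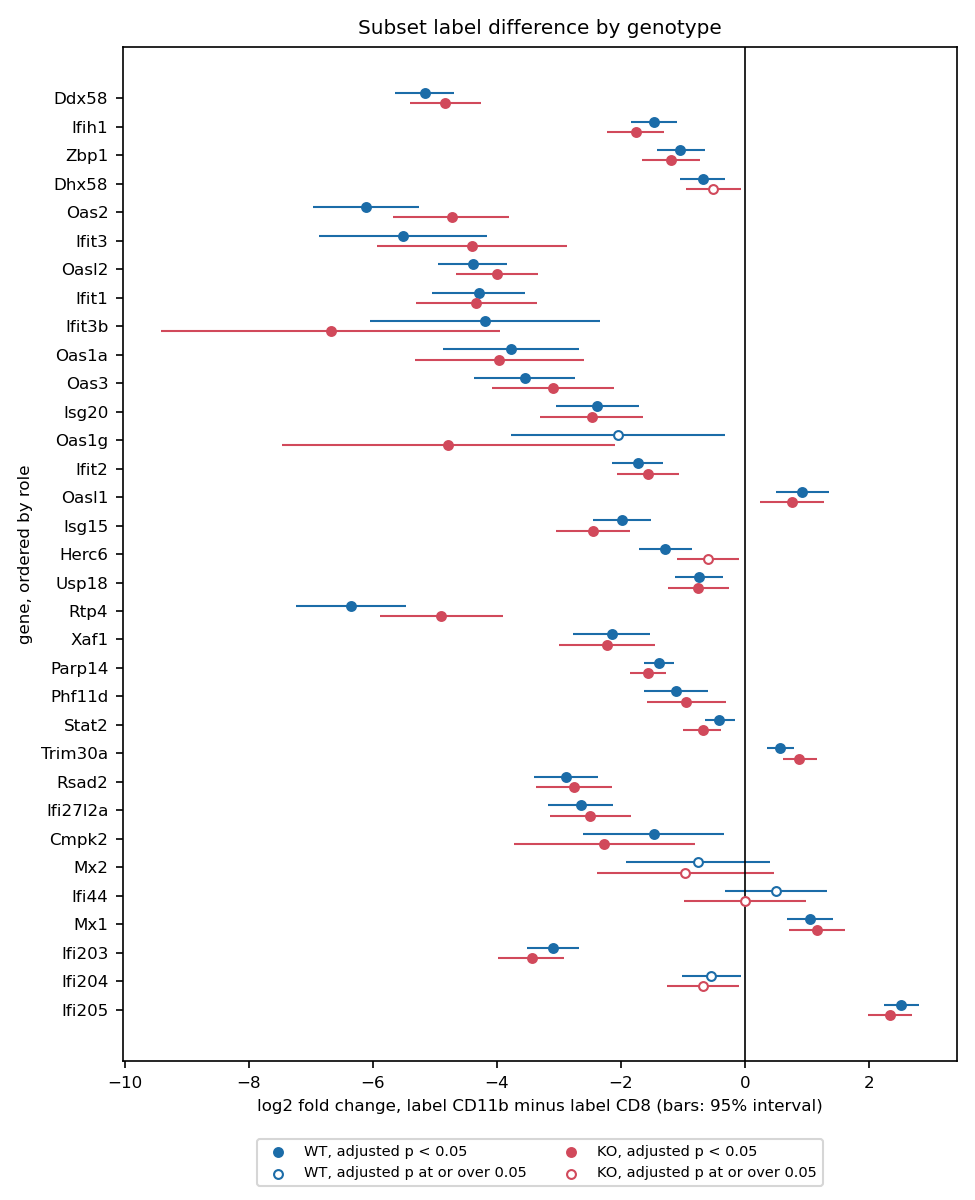
Log2 fold change of each of the 33 genes, label CD11b minus label CD8, in WT (blue, 3 libraries against 3) and in KO (red, 2 against 2), with 95% intervals from edgeR and filled points for adjusted p under 0.05. Points of both genotypes fall on the same side of 0 for every gene, though Ifi44 in KO lies almost on it (0.01). They run from -6.68 (Ifit3b in KO, with 1 count in CD11b KO) to 2.52 (Ifi205 in WT).

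The genotype comparison asked whether loss of Atg16l1 changed these genes within each subset label. No member was called at either label by edgeR, DESeq2 or limma-voom. The smallest edgeR adjusted p was 0.672 at label CD11b and 0.646 at label CD8, where 0.145% of all genes were called at each label. At an unadjusted p under 0.05 there were 6 members at label CD11b (6.42% of all genes) and 1 at label CD8 (6.52% of all genes). The median log2 fold change, KO minus WT, was -0.05 at label CD11b and -0.07 at label CD8, against -0.01 and 0.0 over all genes.

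The 95% interval of the KO minus WT difference lay within 1 log2 unit of 0 for 18 genes at label CD11b and for 23 at label CD8. For the others the interval did not exclude a change of 2-fold. Among the well-counted genes the intervals were narrow: Parp14 differed by -0.17 (-0.44 to 0.10) at label CD11b and by 0.00 (-0.26 to 0.26) at label CD8, and Stat2 by -0.31 (-0.60 to -0.03) and -0.04 (-0.32 to 0.24). For Ifih1 the values were -0.25 (-0.67 to 0.17) and 0.05 (-0.35 to 0.44). Ddx58 differed by 0.29 (-0.35 to 0.93) at label CD11b and by -0.04 (-0.44 to 0.36) at label CD8. At label CD11b it had only 20 to 45 counts per library, and its interval there nearly reached a 2-fold increase.

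Usp18 was the member with an unadjusted p under 0.05 at both labels. Its level was 22.0, 26.4 and 25.9 CPM in CD11b WT and 21.1 and 13.2 CPM in CD11b KO, and 43.5, 35.3 and 45.0 CPM in CD8 WT and 31.3 and 26.1 CPM in CD8 KO. Every KO library lay below every WT library of its label, with log2 fold changes of -0.53 (95% interval -0.99 to -0.08, edgeR adjusted p = 0.696) and -0.52 (-0.96 to -0.08, edgeR adjusted p = 0.646). At label CD11b the value was -0.90 when CD11b KO 1 was left out and -0.23 when CD11b KO 2 was, and at label CD8 it ranged from -0.66 to -0.39 over the alternatives. Groups that do not overlap were common among all genes, 20.5% at label CD11b and 24.0% at label CD8, and among the members there were 6 and 9. The other members with an unadjusted p under 0.05 at label CD11b were Oas1g (log2 fold change -3.12), Herc6 (0.53), Stat2 (-0.31), Ifi203 (-0.54) and Oas2 (1.20), and none of these passed after adjustment over all genes. Oas1g had 32 counts in CD11b WT and 2 in CD11b KO, a ratio of 9.43 with a counting interval of 2.41 to 81.2. The value of Oas2 was 2.59 without CD11b WT 3 (edgeR adjusted p = 0.0863, against 0.773 with all libraries), in a range from 0.63 to 2.59.

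Herc6 was the gene whose KO and WT libraries were apart at both labels in opposite directions. It stood at 9.95, 15.7 and 12.6 CPM in CD11b WT and 16.4 and 20.2 CPM in CD11b KO, and at 31.2, 32.4 and 29.5 CPM in CD8 WT and 27.6 and 27.9 CPM in CD8 KO. The difference of the KO effects, label CD8 minus label CD11b, was -0.69 on the log2 scale (SE 0.32, edgeR adjusted p = 0.868). Oas2 was the other member with an unadjusted p under 0.05 for that difference (-1.38, SE 0.65), where 5.46% of all genes passed and 0.0206% were called. No member was called for the difference of the KO effects by any of the 3 tools.

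**Figure D4:**
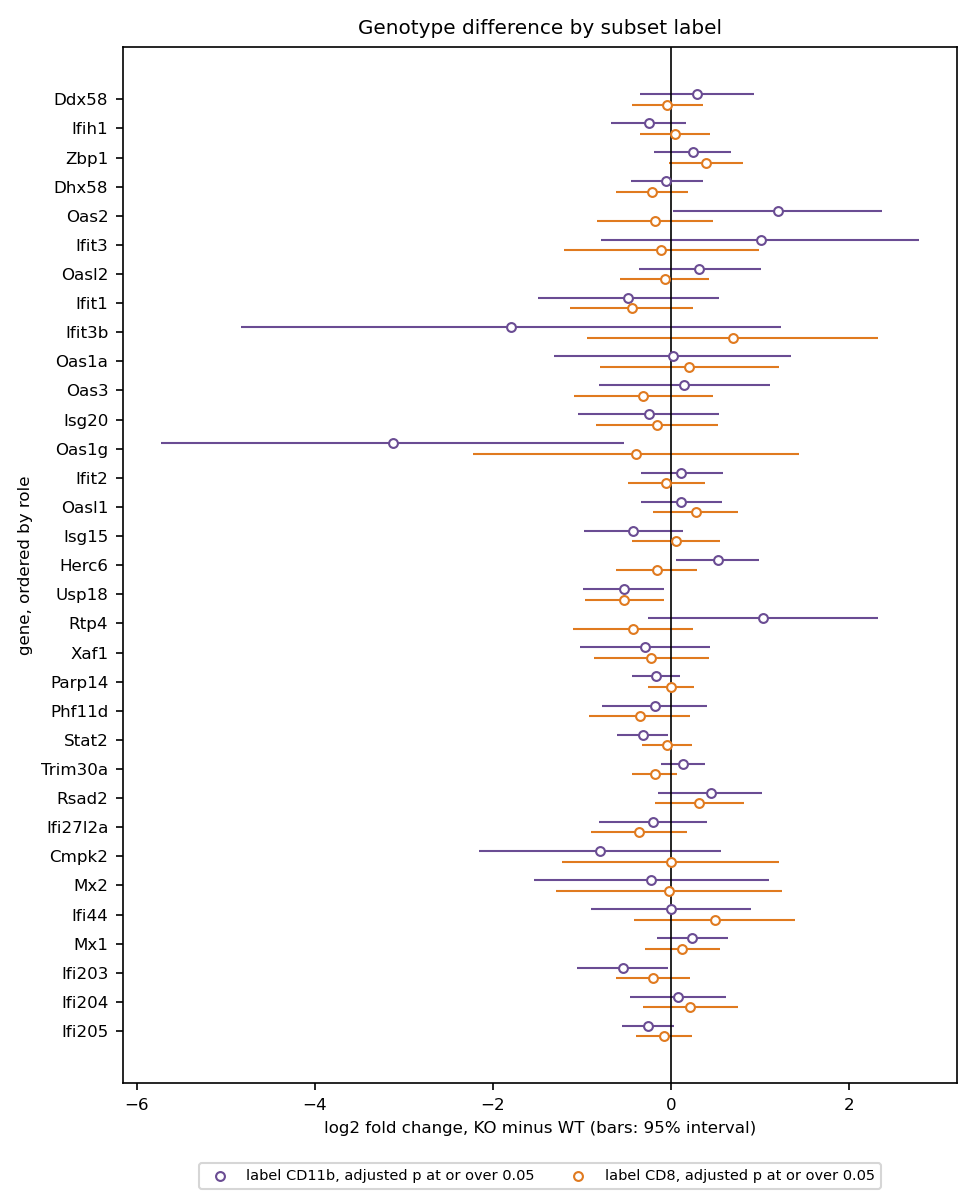
Log2 fold change of each of the 33 genes, KO minus WT, at label CD11b (purple, 2 libraries against 3) and label CD8 (orange, 2 against 3), with 95% intervals from edgeR. All points are open because no adjusted p was under 0.05, and the widest intervals belong to genes with few counts such as Oas1g and Ifit3b at label CD11b.

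Within the WT groups the libraries numbered 3 held the highest level of most members. CD11b WT 3 was the highest of its group in 22 of the 33 genes (66.7%, against 31.5% of all genes tested), and CD8 WT 3 in 24 of the 33 (72.7%, against 33.5%). Both were highest together in 15 genes (45.5%, against 11.4% of all genes), including Ifit2, Oas3, Ddx58, Zbp1, Ifi27l2a and Trim30a. With shares of 66.7% and 72.7% in the single libraries, many joint genes follow from those shares alone. Agreement gene by gene beyond them was not tested. CD11b WT 1 was the highest for none of the 33, where it was the highest for 35.9% of all genes. The median deviation from the group's mean log2 CPM was 0.26 for the 33 genes in CD11b WT 3 and 0.19 in CD8 WT 3, small beside the subset differences. The summed level of the 33 genes was 801, 878 and 946 CPM in CD11b WT, 808 and 851 CPM in CD11b KO, 1440.0, 1480.0 and 1701 CPM in CD8 WT and 1502 and 1432 CPM in CD8 KO. Both KO groups thus lay within the range of their WT groups or, for CD8 KO 2, just below it. Whether libraries with the same number came from the same mouse is not given in the sources used here.

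**Figure D5:**
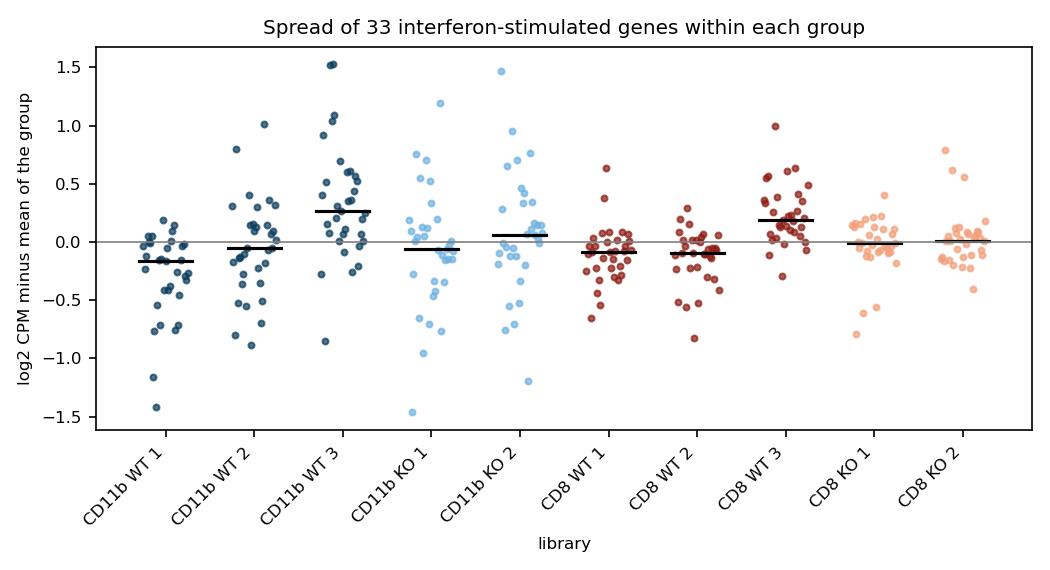
Deviation of each of the 33 genes (points) from the mean log2 CPM of its own group, for each of the 10 libraries, with black bars for the median. The bars of CD11b WT 3 (0.26) and CD8 WT 3 (0.19) sit above those of the other 8 libraries.

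The other genes of the pathway were taken from 8 lists with 157 matched genes, of which 126 were tested. These lists too were chosen with earlier results of these data known. In WT, 54 of the 126 were lower and 18 higher at label CD11b (57.1%, against 29.5% of all genes), with a median log2 difference of -0.51. In KO, 52 were lower and 9 higher (48.4%, against 22.8%), with a median of -0.43. Genes for the interferons themselves were not measurable: 9 of 21 had no count in any library, the other 12 had at most 23 counts summed in a library, and none could be tested. Among genes for interferon receptors and Janus kinases, Ifnar2, a chain of the type I receptor, stood at 26.8 ± 6.75 CPM in CD11b WT and 49.3 ± 3.04 CPM in CD8 WT (SD, n = 3 each; log2 difference -0.88), and the kinase gene Tyk2 was higher by 0.78.

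The share of called genes in WT differed between lists and is given beside the 29.5% of all genes. Among 14 adaptors and kinases that act after nucleic acid sensors, 3 were lower and 2 higher (35.7%, near the share of all genes), with Tmem173, the DNA pathway adaptor STING, lower by 1.07 and Zc3hav1, an RNA-binding antiviral protein, lower by 1.42 on the log2 scale. Of 16 tested negative regulators 10 were lower and 1 higher (68.8%), among them the phosphatase gene Ptpn6 (-1.68), the cytokine signalling inhibitor Socs3 (-1.79) and the NF-kappaB inhibitor Tnfaip3 (-1.22). Other interferon-stimulated genes were split: 21 of 48 were lower, such as Ms4a4c (-4.97) and the helicase gene Ddx60 (-3.94), and 11 were higher (66.7% in all), with the chemokine gene Cxcl9 at 194 ± 26.4 CPM in CD11b WT and 13.3 ± 3.23 CPM in CD8 WT (SD, n = 3 each; log2 difference 3.87, SE 0.16). Of 24 further paralogs of the member families, 10 were lower and 3 higher (54.2%), with the PYHIN genes Mndal (-2.63) and Ifi213 (-4.38) on the side of Ifi203. Of the 9 immunity-related GTPases, which act on vacuoles of intracellular parasites, 3 were lower and none higher (33.3%, near the share of all genes: Irgm2 -2.38, Ifi47 -1.94, Irgm1 -0.79). Of the 6 genes listed under ISG15 conjugation, 3 were lower and 1 was higher (66.7% in all). The lower ones were Herc3 (-1.29), Herc4 (-0.72) and the activating enzyme gene Uba7 (-0.78), and the higher one was the ligase gene Trim25 (0.48). Ube2l6 of the same list stood at 15.1 ± 2.65 CPM in CD11b WT and 14.8 ± 3.09 CPM in CD8 WT (SD, n = 3 each). Herc6, the ligase gene described above, is among the 33 members and not in this list.

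None of the 126 pathway genes was called between KO and WT by edgeR at either label. At each label 14 of the 126 had an unadjusted p under 0.05, against 6.42% of all genes at label CD11b and 6.52% at label CD8. DESeq2 called 1 at label CD11b (0.289% of all genes), the interferon-induced gene Ifi27 (-1.22, adjusted p = 0.0289). At label CD8 it called 4 (0.372% of all genes): Ly6e (0.55), Ly6a (2.02), Tmem140 (1.12) and Ifngr1 (-0.36). Limma-voom called 3 at label CD8 (0.434% of all genes): Ly6e, Ifngr1 and Ifitm1. These genes were named after their values were seen. Ly6e, a membrane-anchored protein that restricts viral entry, had an edgeR adjusted p of 0.0569 at label CD8.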

How the data were processed

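RNA was sequenced with a stranded total RNA kit from sorted dendritic cells of single mice, per the labels' protocols. The deposited files hold whole-number read counts per gene and library in 3 columns: without strand, and for each strand. STAR 2.5.0a and build GRCm38 are named in the submitters' processing notes; the annotation release is not given in the sources used here. The fourth column was used, since its counts were 16.1 times those of the opposite strand. Symbols came from GENCODE vM21, which held 53274 of the 53379 identifiers (105 not). Rows that name no gene were left out.

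Genes were filtered by group with filterByExpr, scaled by TMM and fitted with 4 group means over all 10 libraries in edgeR 4.0.16 (R 4.3.3; quasi-likelihood test, 6 residual degrees of freedom, common dispersion 0.086). The 5 comparisons were KO against WT at each label, their difference, and label CD11b against label CD8 in each genotype. P-values were adjusted over all 14528 genes. Alternatives used DESeq2 1.42.0, limma 3.58.1, other scaling and filters, counts without strand, and libraries left out in turn. The script was tested on simulated data. Promoters were read with Python 3.11.15. Named were Atg16l1, all members, up to 4 genes with the smallest p per pathway list and comparison, defining markers, Csf1r, and 6 promoters. Ifitm1 was named in addition, because limma-voom called it. The members and lists were chosen with earlier results of these data known. Intervals of ratios of counts cover counting error only, since no molecular identifiers are named in the sources used here. The count of 1 pathway list is not reported here.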

Additional observations from a re-analysis of the deposited data

Results flagged for a closer look

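Herc6 differed between KO and WT without overlap at both labels and in opposite directions: both CD11b KO libraries were above the 3 CD11b WT libraries, and both CD8 KO libraries were below the 3 CD8 WT libraries. The difference of the KO effects, label CD8 minus label CD11b, was -0.69 on the log2 scale (edgeR adjusted p = 0.868), so it did not pass the test over all genes. Groups without overlap at a single label were common among all genes (20.5% at label CD11b and 24.0% at label CD8). The share of all genes apart at both labels in opposite directions is not given here. How far the joint pattern sets Herc6 apart was therefore not tested.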

How the results depend on the processing

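Counts of called members and pathway genes, and 75 member values (all subset differences, and the genotype values with an unadjusted p under 0.05), were recomputed under up to 19 alternative settings, 1 of them, without CD11b WT 1 and CD8 KO 2 together, chosen after seeing the data. No member was called for KO against WT at either label, or for their difference, under any of them. Between labels, 28 to 30 members were called in WT (28 to 30 with single libraries left out) and 24 to 28 in KO (24 to 28 with single libraries left out), and the median log2 difference ranged from -1.96 to -1.39 and from -2.41 to -1.67. Of the 75 member values, 65 kept their direction and side of the threshold throughout. Ifi44 between labels in KO, not called, changed sign from 0.01 to -0.00186 with unstranded counts, -0.55 without CD11b KO 2 and -0.46 without CD8 KO 1 (-0.55 to 0.7 with single libraries left out); the cause was not tested.

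Counts of called genes moved more for the genotype. Over all genes, 21 were called at label CD11b, 13 with only the libraries compared, 42 with DESeq2 and 71 with no filter on low counts; 21 were called at label CD8, 63 with only the libraries compared and with limma-voom, 54 with DESeq2, 142 with no filter, 53 without CD8 KO 1 and 7 without CD8 KO 2; and for the difference of effects, 3 became 11 with DESeq2, 8 with the replicate block and 41 with no filter. Of the pathway genes, called 0 times, 2 were called at label CD11b with no filter and 1 with DESeq2. At label CD8 they were 6 with no filter, 4 with DESeq2, 3 with limma-voom and 3 with only the libraries compared, and 0 to 2 with single libraries left out. For the difference 2 were called with no filter. The cause was not tested.

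The correlations of deviations between libraries with the same number were below the 0.1 set for pairing: 0.049, 0.018 and 0.026 for the WT pairs and 0.041 for the KO pairs across labels. The numbers were therefore not used as pairs. With the replicate block, 29 members were called between labels in WT and 28 in KO, 0 for the genotype, and 29 and 26 of all genes for the genotype at label CD11b and label CD8. Every WT library correlated best with its own number across labels, a hint from the data only. The 2 libraries per KO group and few counts for Oas1g, Ifit3b, Ifit3 and Oas2 at label CD11b limit the genotype comparison.

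Between labels in KO, the log2 difference moved by over 1.5 times in fold for these genes when 1 library was left out. Ifit3 moved from -4.40 to -3.49 without CD11b KO 1 and to -10.23 without CD11b KO 2. Ifit3b moved from -6.68 to -5.93, -9.02, -7.28 and -5.65 without CD11b KO 1, CD11b KO 2, CD8 KO 1 and CD8 KO 2. Isg20 moved from -2.47 to -3.46 and -1.86, and Oas3 from -3.10 to -2.45 and -4.45, without CD11b KO 1 and CD11b KO 2. Oas1a moved from -3.96 to -4.97 without CD11b KO 2, and Oas1g from -4.78 to -8.05 without CD11b KO 1. Rsad2 moved from -2.76 to -3.37 without CD11b KO 1, and Cmpk2 from -2.27 to -3.43 without CD11b KO 2. For Ifit3 at -10.23, Ifit3b at -9.02 and Oas1g at -8.05, the CD11b KO library that was kept had no count. The sizes of these values are therefore not measured fold changes.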
